A study of Drosophila melanogaster with 12 samples.

Results

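Contacts between the left arm of chromosome 2 (2L) and both arms of chromosome 3 (3L and 3R) were measured by haplotype-resolved Hi-C in PnM cells, a clonal male line of *Drosophila melanogaster* in which the maternal and the paternal homolog of each autosome come from different inbred strains (DGRP-057 and DGRP-439). The members were all read pairs with one side on 2L and the other on 3L or 3R, 2426183 of 143354680 pairs in 8 libraries, placed in 379 fixed windows of 200 kb (116 on 2L, 123 on 3L and 140 on 3R) of 598 windows on the 5 large arms of the dm3 assembly. Untreated cells, mock RNAi cells (water in place of dsRNA), Slmb RNAi cells and TopII RNAi cells were each represented by 2 replicates. Slmb is a component of an SCF ubiquitin ligase and TopII is a DNA topoisomerase, and the study targeted them because both were known to promote homolog pairing. All groups were the same clone, so no group stands for a second genotype, and nothing in the labels says that replicates came from separate cultures beyond their number. The paper's methods give 2 biological replicates for each RNAi treatment, without stating how their cultures were kept apart. A part of the cells carries 2 maternal copies of most of 3R, which the study traced to a partial uniparental disomy, and the X is present in a single copy.

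In Hi-C, DNA ends that lie close together in fixed nuclei are ligated, and each read pair records 1 such ligation. Most pairs join loci of the same chromosome, because chromosomes occupy territories. Contacts between different chromosomes, the *trans*-heterolog or *thet* contacts, are sparse and report on how territories lie against each other. *Drosophila* is known for somatic pairing of homologs and, in embryonic nuclei, for a Rabl arrangement, in which centromeres gather at one pole of the nucleus and telomeres at the other, so that loci at like distances from the centromere lie at like heights. A clone in which each autosome is labelled by its parent also allows a separate question, whether a maternal 2L meets a maternal chromosome 3 more often than a paternal one.

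The libraries held between 10190412 and 38465767 pairs, of which 7804791 to 27718048 were taken as ligated after pairs of the same homolog less than 1 kb apart were left out. Contacts of 2L with chromosome 3 made up 1.69% to 2.48% of these, with 70101 to 323721 pairs per library for 3L and 79284 to 362515 for 3R. The 4 combinations of read strand each held between 24.7% and 25.3% of these pairs. Mapping quality was modest, with a median of 21 in every library for the lower of both sides, and 22% to 22.4% of the pairs had both sides at 30 or more. A window was used where its read sides in untreated cells were at least 25% of the median window of its arm, which kept 349 of the 379 windows. The 30 windows left out included the last 2.94 Mb of 3L and the first 1.8 Mb of 3R next to the centromere, so the pericentric ends of chromosome 3 were not measured at usable depth. The read files named in the headers carry one lane label for both mock RNAi libraries and another for both Slmb RNAi libraries, and those of TopII RNAi follow a different naming. The untreated libraries came from merged read files. Lane and condition cannot be told apart, including for TopII RNAi against mock RNAi.

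The level of 2L contacts with chromosome 3 overlapped between the conditions. The level is the number of pairs divided by the number expected if the same read sides were joined at random, and values below 1 reflect the share of sides that join within their own chromosome. With 3L the level was 0.224 and 0.240 in untreated cells, 0.242 and 0.218 in mock RNAi cells, 0.230 and 0.205 in Slmb RNAi cells, and 0.252 and 0.168 in TopII RNAi cells. With 3R it was 0.231 and 0.248 in untreated cells, 0.257 and 0.232 in mock RNAi cells, 0.238 and 0.214 in Slmb RNAi cells, and 0.259 and 0.177 in TopII RNAi cells. The groups overlapped in each comparison, and the replicates of TopII RNAi held both the highest and the lowest value of all libraries. On the log2 scale, TopII RNAi minus mock RNAi was −0.16 for 3L and −0.19 for 3R, and became 0.13 and 0.087 without replicate 2 of TopII RNAi. Slmb RNAi minus mock RNAi was −0.082 and −0.11, and mock RNAi minus untreated was −0.012 and 0.029. Exact permutation tests, two-sided, gave p = 0.67 or 1 for these 6 comparisons, in a design of 2 against 2 that cannot go below 0.33.

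Which arm was met made a small difference of one sign. The level with 3R exceeded the level with 3L in all 8 libraries, by 0.061 ± 0.019 on the log2 scale (SD, n = 8), a ratio of 1.04 (95% interval 1.03 to 1.06 from inverting the test, exact sign-flip permutation test over libraries, two-sided p = 0.0078, adjusted p = 0.012 over 23 such tests, the smallest p that 8 libraries can give). With mapping quality of at least 30 on both sides the difference between the arms was 0.15. The mean log2 levels were then −1.26 with 3L and −1.11 with 3R, in place of −2.18 and −2.12. The level of 2L with either arm of chromosome 3 lay below that of 2R, its partner arm, in every library. The level of 2L was 0.925 times that of 2R with 3L (interval 0.917 to 0.933) and 0.862 times that of 2R with 3R (interval 0.840 to 0.882), both with p = 0.0078 and adjusted p = 0.012 in the exact test.

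**Figure D1:**
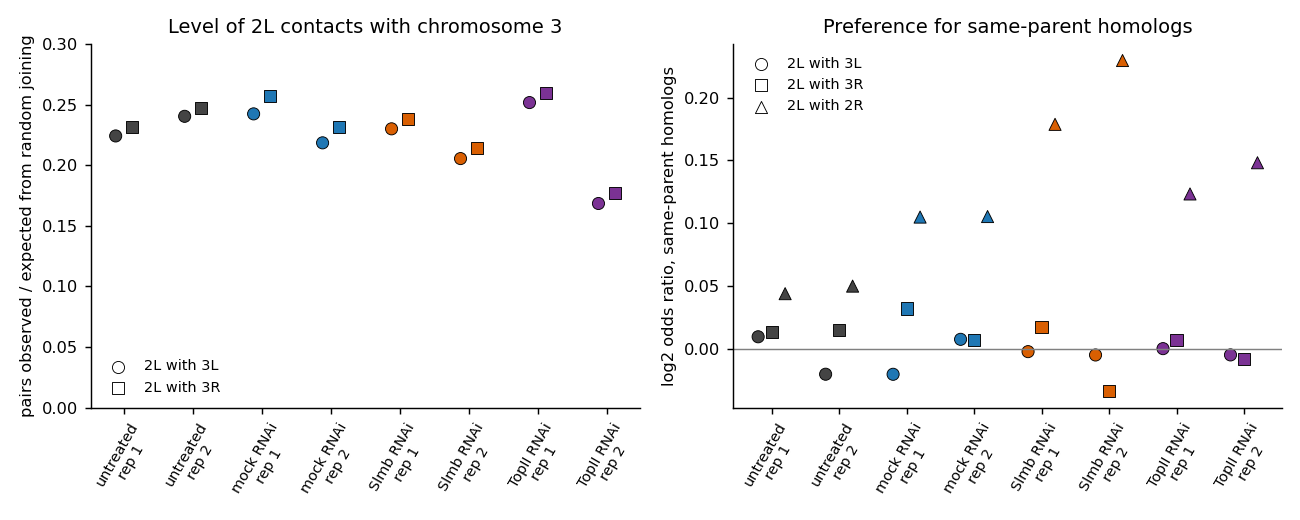
Left, pairs of 2L with 3L (circles) and with 3R (squares) divided by the pairs expected from random joining of read sides, for each of the 8 libraries; the vertical axis starts at 0, and values lie between 0.168 and 0.259 with 3R above 3L in every library. Right, log2 odds ratio for same-parent homologs in the same libraries, near 0 for 2L with 3L and 3R and between 0.044 and 0.23 for 2L with 2R (triangles); colours mark the condition.

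No preference for homologs of the same or of the other parent was detected between 2L and chromosome 3. In replicate 1 of untreated cells, 2L and 3L gave 72023 maternal–maternal pairs, 71746 paternal–paternal pairs, 71918 pairs of maternal 2L with paternal 3L, and 71358 pairs of paternal 2L with maternal 3L. For 3R the same library gave 96562 maternal–maternal and 64220 paternal–paternal pairs, 63862 pairs of maternal 2L with paternal 3R, and 96204 pairs of paternal 2L with maternal 3R. Both combinations with maternal 3R were in excess, and that homolog held 60.2% to 63.1% of the read sides of 3R in the 8 libraries against 50.1% to 50.2% on 2L and 49.8% to 50.6% on 3L. On 3R itself the maternal share was 50.8% to 54.7% in the first 3.2 Mb and 60.5% to 63.4% in the rest of the arm. Divided by their own random expectation, the 4 combinations of 3R in replicate 1 of untreated cells stood at 0.231 (maternal–maternal), 0.231 (maternal 2L with paternal 3R), 0.231 (paternal 2L with maternal 3R) and 0.233 (paternal–paternal).

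The odds ratio of the 4 combinations does not depend on the dosage or coverage of either homolog, and an odds ratio above 1 marks an excess of same-parent pairs. For 2L with 3L the log2 odds ratio was 0.0099 and −0.020 in untreated cells, −0.020 and 0.0079 in mock RNAi cells, −0.0019 and −0.0045 in Slmb RNAi cells, and 0.00050 and −0.0045 in TopII RNAi cells. For 2L with 3R it was 0.013 and 0.015 in untreated cells, 0.032 and 0.0076 in mock RNAi cells, 0.018 and −0.033 in Slmb RNAi cells, and 0.0074 and −0.0074 in TopII RNAi cells. Both signs occurred for each arm. The mean was −0.0040 ± 0.011 for 3L (SD, n = 8, exact sign-flip permutation p = 0.34, adjusted p = 0.38) and 0.0067 ± 0.020 for 3R (p = 0.39, adjusted p = 0.41). As odds ratios, the 95% intervals ran from 0.990 to 1.004 for 3L and from 0.992 to 1.015 for 3R, and any excess of same-parent pairs over the whole arms that lies within these limits was not detectable here. The arms differed by −0.011 ± 0.025 (SD, n = 8, exact p = 0.27, adjusted p = 0.31). Without replicate 2 of Slmb RNAi the mean for 3R was 0.012 (exact p = 0.047, unadjusted).

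The same measure did register linkage along a chromosome. Between 2L and 2R, where same-parent homologs are a single molecule, the log2 odds ratio was positive in every library, with 0.044 and 0.050 in untreated cells, 0.11 and 0.11 in mock RNAi cells, 0.18 and 0.23 in Slmb RNAi cells, and 0.12 and 0.15 in TopII RNAi cells. It exceeded the value of 2L with 3L by 0.13 ± 0.063 (SD, n = 8) and that of 2L with 3R by 0.12 ± 0.077 (exact sign-flip permutation p = 0.0078 and adjusted p = 0.012 for both). The untreated libraries had the lowest of these values and the Slmb RNAi libraries the highest, whereas no such order appeared in the contacts of 2L with chromosome 3.

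Single windows gave no parent preference either. In a limma fit over the 906 combinations of window and partner arm in all 4 *thet* arm pairs, 0 of the 461 combinations that join 2L and chromosome 3 passed an adjusted p of 0.05, against 0% of all 906. An unadjusted p under 0.05 was found for 13 of the 461, and the lowest adjusted p was 0.94. The matching count over all 906 is not given here. Each contact enters the 461 from its 2L side and again from its chromosome 3 side. Counts pooled over the 8 libraries gave a log2 odds ratio of −0.0048 for 2L with 3L (interval −0.015 to 0.0058) and 0.011 for 2L with 3R (interval 0.00037 to 0.021, which lies above 0). At the ends of the arms the pooled counts left a preference unresolved. The telomere ends of 2L and 3L held 640 maternal–maternal, 614 paternal–paternal, 606 and 560 mixed pairs over the 8 libraries, a log2 odds ratio of 0.20 with a counting interval from −0.028 to 0.43. For the telomere ends of 2L and 3R the log2 odds ratio was 0.078 (interval −0.15 to 0.30). These intervals cover counting error only and leave out the spread between libraries.

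Contacts of 2L with 3R fell with the difference in distance from the centromere in the RNAi libraries and hardly in untreated cells, and those with 3L rose with it in untreated cells. To compare positions on arms of different length, each window was given its distance from the end of the assembled arm nearest the centromere, and each contact frequency was divided by that of the whole arm pair in the same library, the relative contact. Between 2L and 3R, blocks whose distances differed by less than 1 Mb had a relative contact of 1.01 and 1.02 in untreated cells, 1.08 and 1.09 in mock RNAi cells, 1.04 and 1.04 in Slmb RNAi cells, and 1.05 and 1.11 in TopII RNAi cells. Blocks that differed by 15 to 20 Mb had 0.997 and 0.993 in untreated cells, 0.867 and 0.876 in mock RNAi cells, 0.939 and 0.923 in Slmb RNAi cells, and 0.910 and 0.830 in TopII RNAi cells. Thus the untreated profile with 3R was almost flat, and every RNAi library, mock RNAi included, declined. Between 2L and 3L the contact at 0 to 1 Mb and at 15 to 20 Mb went from 0.993 to 1.08 and from 0.984 to 1.09 in untreated cells, from 1.05 to 0.965 and from 1.04 to 0.966 in mock RNAi cells, from 1.01 to 1.03 and from 1.05 to 0.994 in Slmb RNAi cells, and from 1.03 to 1.01 and from 1.06 to 0.917 in TopII RNAi cells. With 3L, both untreated libraries and replicate 1 of Slmb RNAi therefore ended higher than they began.

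The equal-distance score summarises this as the log2 contact of blocks that differ by less than 2 Mb minus that of blocks that differ by more than 10 Mb. For 2L with 3R the score was 0.023 and 0.027 in untreated cells, 0.24 and 0.24 in mock RNAi cells, 0.12 and 0.13 in Slmb RNAi cells, and 0.15 and 0.35 in TopII RNAi cells. It was positive in all 8 libraries, with a mean of 0.16 ± 0.11 (SD, n = 8, interval 0.066 to 0.24, exact sign-flip permutation p = 0.0078, adjusted p = 0.012). Both untreated values lay below that interval, so the mean over the 4 conditions describes no single condition. At mapping quality of at least 30 the mean was 0.082 (exact p = 0.031) with −0.030 and −0.011 in untreated cells. By distance from the telomere end it was 0.10 (exact p = 0.039) with −0.026 and −0.036 in untreated cells. The sign in untreated cells thus depended on these choices. For 2L with 3L the score was −0.062 and −0.076 in untreated cells, 0.13 and 0.13 in mock RNAi cells, 0.055 and 0.086 in Slmb RNAi cells, and 0.037 and 0.23 in TopII RNAi cells. Its mean of 0.067 ± 0.10 did not pass the test (interval −0.020 to 0.15, exact p = 0.12, adjusted p = 0.15), since both untreated libraries fell below 0 and all 6 RNAi libraries above it.

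How the expectation was drawn set the difference between the arms. With the expectation from read sides, the score of 3L lay below that of 3R by 0.092 ± 0.025 in all 8 libraries (exact p = 0.0078, adjusted p = 0.012). With the expectation from the margins of each map, which fixes the total of every window and leaves only its choice among partner windows, the score of 2L with 3L was positive in all 8 libraries, at 0.073 and 0.059 in untreated cells, 0.26 and 0.25 in mock RNAi cells, 0.18 and 0.21 in Slmb RNAi cells, and 0.18 and 0.36 in TopII RNAi cells (mean 0.20, exact p = 0.0078). The mean score of 2L with 3R was then 0.19, and the arms differed by 0.0084 with 3L above 3R (exact p = 0.23). Restricted to pairs with mapping quality of at least 30, the mean score of 2L with 3L was −0.059 (exact p = 0.14).

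**Figure D2:**
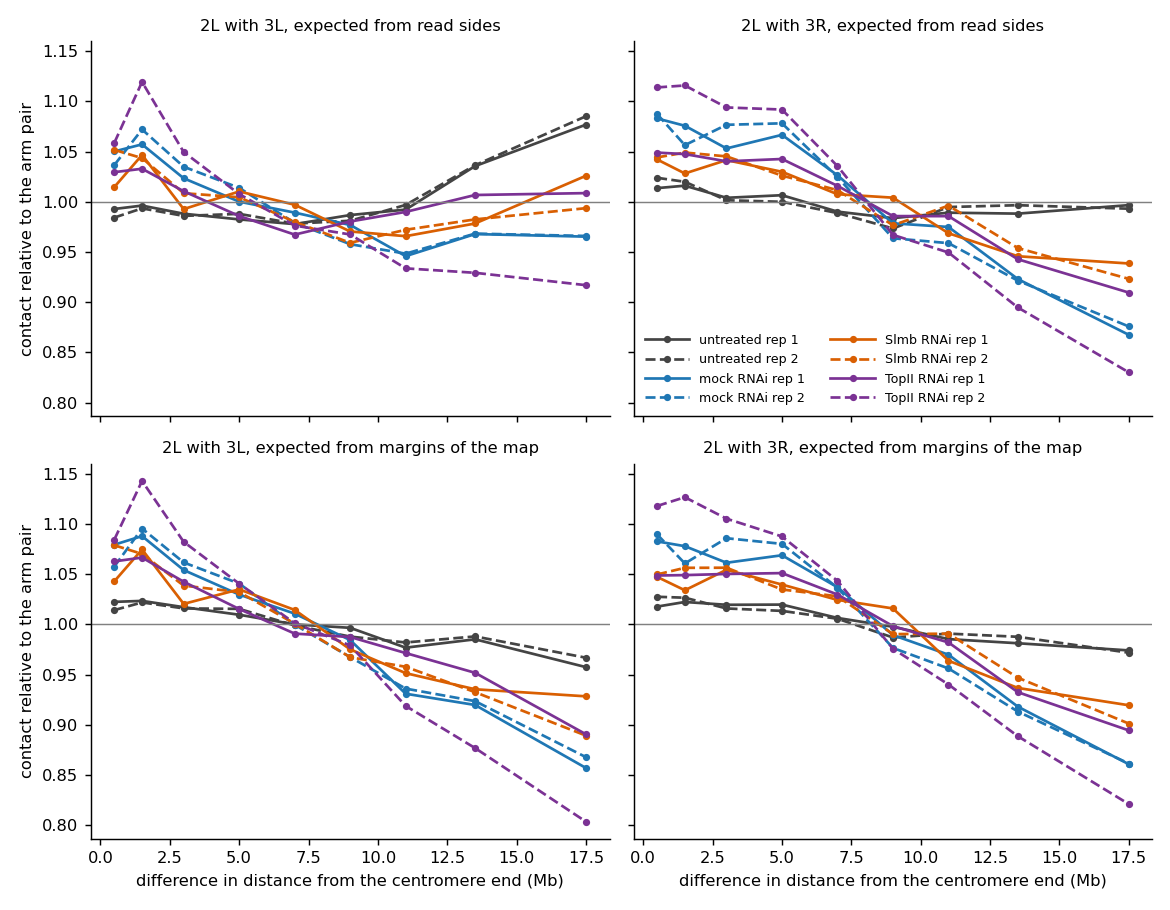
Contact relative to the whole arm pair (vertical axis) against the difference between the distances of both sides from the centromere end of their arms (horizontal axis, Mb), for 2L with 3L (left) and 3R (right), one line per library; solid lines are replicate 1 and dashed lines replicate 2. In the top row the expectation comes from read sides, and the untreated lines stay near 1 or rise to 1.09 with 3L; in the bottom row it comes from the margins of each map, and every line declines, that of TopII RNAi replicate 2 to 0.803 with 3L.

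Between conditions, the score was compared by exact permutation of 2 against 2 libraries alone. Both mock RNAi libraries exceeded both untreated libraries, by 0.20 on the log2 scale for 3L and 0.21 for 3R with read sides, and by 0.19 and 0.19 with margins. The Slmb RNAi libraries lay below the mock RNAi libraries without overlap, by 0.061 for 3L and 0.11 for 3R. The TopII RNAi replicates lay on both sides of the mock RNAi libraries, and the one with the steepest decline, replicate 2, was also the library with the lowest level of 2L contacts with chromosome 3. For mock RNAi against untreated and Slmb RNAi against mock RNAi the exact permutation p was 0.33, the smallest that 2 against 2 allows, and for TopII RNAi against mock RNAi it was 1. The untreated libraries were the deepest, and whether depth or lane had a part in the order was not tested. Compared with 2R, the score of 2L was higher by 0.063 ± 0.032 with 3L (exact p = 0.0078, adjusted p = 0.012). That difference was 0.019 with margins (exact p = 0.039) and 0.021 by distance from the telomere end. With 3R the score of 2L was higher by 0.014 ± 0.024 (exact p = 0.15, adjusted p = 0.18).

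**Figure D3:**
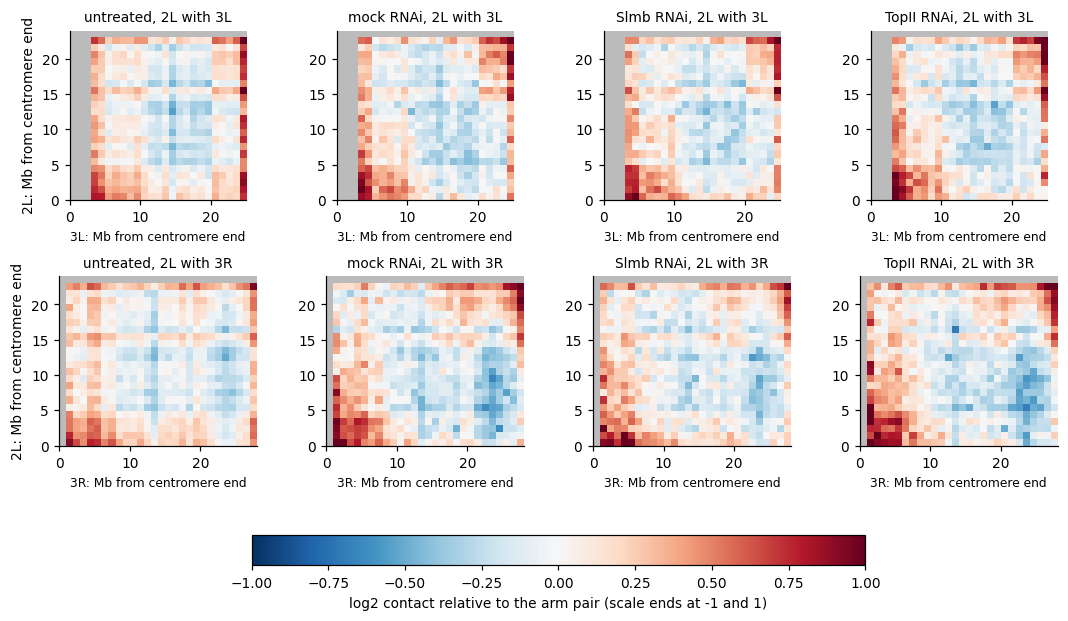
Log2 contact relative to the arm pair in blocks of 1 Mb, for 2L (vertical axis, Mb from the centromere end) against 3L (top) and 3R (bottom, horizontal axes, Mb from the centromere end), with both replicates of each condition summed; grey marks windows under the coverage minimum. Corners where both sides lie near the centromere end or near the telomere end are red in each map, and stripes along single rows and columns appear in each condition. Of the opposite corners, that of the 2L telomere end with the 3R centromere end had a mean end-zone contact of 1.25-fold in both untreated and Slmb RNAi cells. In the others each RNAi mean lay below the untreated mean.

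Telomere ends met each other more often than the arms at large. Within 1 Mb of the telomere ends, 2L and 3L had a relative contact of 1.79 and 1.89 in untreated cells, 2.01 and 2.21 in mock RNAi cells, 2.01 and 2.10 in Slmb RNAi cells, and 1.86 and 2.94 in TopII RNAi cells. For 2L and 3R the values were 1.95 and 1.92 in untreated cells, 2.58 and 2.73 in mock RNAi cells, 2.13 and 2.50 in Slmb RNAi cells, and 2.17 and 3.79 in TopII RNAi cells. These rest on 175 to 626 pairs per library for 3L, from 4 windows of 2L and 3 of 3L, and on 208 to 648 pairs for 3R, from 4 windows and 5. The zone of 3L began at chr3L:400001-600000, since the windows nearer the tip fell under the coverage minimum. That of 3R held its terminal window. The values for 3L and 3R may therefore stand for unlike distances from the tip. The mean enrichment was 2.08-fold for 3L (interval 1.88 to 2.39) and 2.41-fold for 3R (interval 2.02 to 2.96), both above 1 in 8 of 8 libraries (exact sign-flip permutation p = 0.0078, adjusted p = 0.012). With the expectation from margins, the enrichment kept its sign in every library, with mean log2 values of 0.45 for 3L and 0.41 for 3R in place of 1.05 and 1.27. The size of the zone also set the size of the enrichment, which with zones of 2 Mb was 0.48 on the log2 scale for 3L and 0.69 for 3R, and with zones of 400 kb 2.34 for 3R.

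In the windows used, the telomere ends of 2L were less enriched than those of 2R. The zone of 2L held 4 windows and began at chr2L:200001-400000, since the terminal window fell under the coverage minimum. Which windows of 2R entered is not given here, and enrichment varied with the size of the zone. The ratios may therefore compare unlike distances from the tip. Against 3R, the log2 enrichment of 2L was lower than that of 2R by 1.5 ± 0.076, a ratio of 0.353 (interval 0.336 to 0.371, exact p = 0.0078, adjusted p = 0.012). Against 3L it was lower by 0.37 ± 0.13, a ratio of 0.776 (interval 0.715 to 0.845, exact p = 0.0078, adjusted p = 0.012). Under the margins of each map, 2L stayed lower than 2R by 0.66 on the log2 scale against 3R (exact p = 0.0078) and by 0.054 against 3L (exact p = 0.30).

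Centromere ends were enriched as well, as far as they could be read. No window within 1 Mb of the centromere end of 3L or 3R passed the coverage minimum, so the 5 outermost windows used on each arm, a definition chosen after the coverage was seen, stood in for them. There 2L and 3L had a relative contact of 1.61 and 1.68 in untreated cells, 1.93 and 1.48 in mock RNAi cells, 1.84 and 1.35 in Slmb RNAi cells, and 1.94 and 1.79 in TopII RNAi cells, and the mean enrichment was 1.69-fold (interval 1.5 to 1.89). For 2L and 3R the values were 1.44 and 1.58, 2.20 and 1.79, 1.80 and 1.78, and 1.91 and 1.88 in the same order, with a mean of 1.79-fold (interval 1.60 to 1.98). Both were above 1 in all 8 libraries (exact p = 0.0078, adjusted p = 0.012), from 54 to 288 pairs per library for 3L and 74 to 335 for 3R. With margins the log2 enrichment was 0.47 for 3R (exact p = 0.0078) and 0.16 for 3L, which no longer passed (exact p = 0.062). Without the coverage minimum, the last 1 Mb of 2L and 3L gave 29 pairs over all libraries against 2.47 expected, on 3L windows that held 0.279% or less of the median read sides, and 0 of these pairs had mapping quality of at least 30.

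Opposite ends behaved differently under each expectation. The telomere end of 2L with the centromere end of chromosome 3 had a mean enrichment of 1.40-fold for 3L (interval 1.28 to 1.53, exact p = 0.0078, adjusted p = 0.012) and 1.18-fold for 3R (interval 1.06 to 1.30, exact p = 0.016, adjusted p = 0.022). The centromere end of 2L with the telomere end had 1.05-fold for 3L (interval 0.898 to 1.2, exact p = 0.49, adjusted p = 0.49) and 1.16-fold for 3R (interval 0.985 to 1.35, exact p = 0.078, adjusted p = 0.11). Without replicate 2 of TopII RNAi the latter had a mean of 0.29 on the log2 scale (exact p = 0.031, unadjusted). With read sides, the values above used zones of 1 Mb for the centromere end of 2L and outermost windows for its telomere end. With the expectation from margins over outermost windows, all 4 were below 0 on the log2 scale. In the order 3L and 3R, the telomere end of 2L had −0.19 and −0.32. Its centromere end had −0.34 and −0.40 (exact p between 0.0078 and 0.023 for all 4). With margins over the zones of 1 Mb, the centromere end of 2L had −0.40 and −0.38 (exact p = 0.0078 for both). The means of like ends exceeded those of opposite ends under both expectations, a contrast that was not tested, while the position of opposite ends against the arm average turned with the choice.

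**Figure D4:**
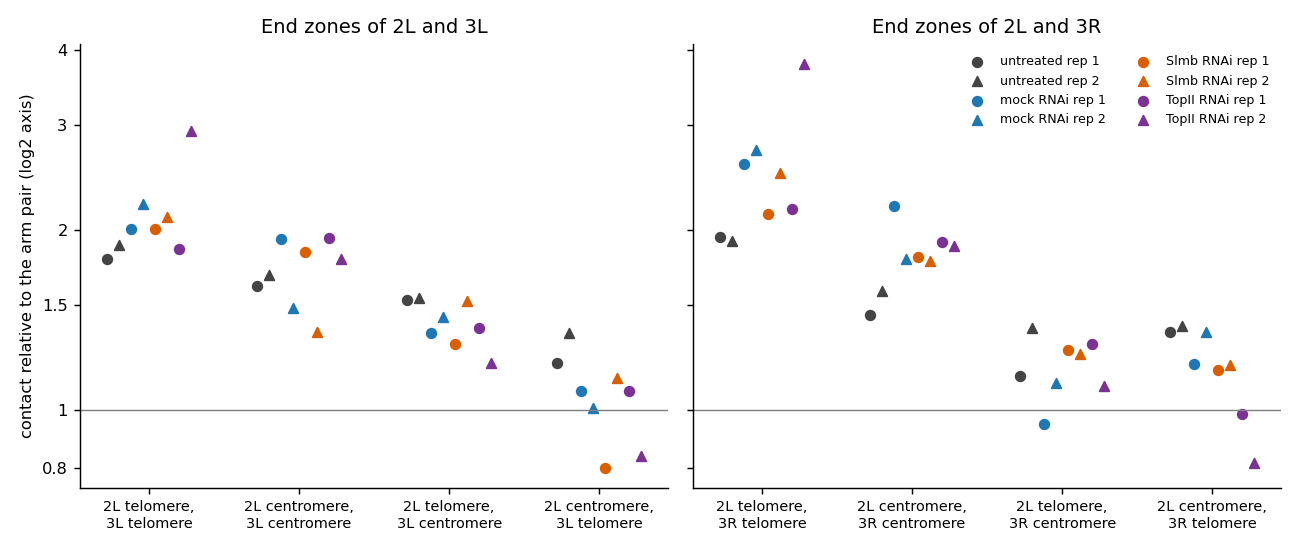
Contact of the end zones relative to the arm pair (log2 axis), for 2L with 3L (left) and 3R (right), one point per library, with circles for replicate 1, triangles for replicate 2 and colours for conditions. Zones are 1 Mb from the end, or the 5 outermost windows used where one side is a centromere end of chromosome 3; telomere ends lie between 1.79 and 2.94 for 3L and between 1.92 and 3.79 for 3R, above 1 in every library.

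Along 2L, windows differed in how much they contacted chromosome 3, and the pattern was shared by both arms. In untreated cells, the relative contact of the 112 windows used ran from 0.802 to 1.55 with 3L and from 0.813 to 1.66 with 3R, with a median of 0.982 for each. Across these windows, contact with 3L in replicate 1 and with 3R in replicate 2 had Pearson's r = 0.98 and Spearman's rho = 0.98. Contact with the X, another chromosome, followed the same course (r = 0.96 with the 3L profile and 0.94 with the 3R profile). The profiles share read sides, and contact with 3L fell with the coverage of the window (r = −0.61), so part of the shared course cannot be told apart from coverage; windows along an arm are not independent replicates.

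The window of 2L used nearest the telomere, chr2L:200001-400000, had the highest relative contact with both arms. With 3L it stood at 1.55 and 1.55 in untreated cells, 1.67 and 1.65 in mock RNAi cells, 1.52 and 1.61 in Slmb RNAi cells, and 1.60 and 1.91 in TopII RNAi cells. With 3R it stood at 1.72 and 1.59 in untreated cells, 1.90 and 2.03 in mock RNAi cells, 1.73 and 1.85 in Slmb RNAi cells, and 1.67 and 2.52 in TopII RNAi cells. Its coverage was 41.6% of the median window. The adjoining window chr2L:400001-600000, with 82.1% coverage, was next with 3R, at 1.51 in the library that chose it and 1.45 to 1.76 in the other 7. On the 3L side the highest window after the telomere end was chr2L:19200001-19400000, toward the centromere, with 1.42 in the library that chose it and 1.25 to 1.36 in the others at 48.6% coverage. At the centromere end, chr2L:22600001-22800000 had a median over libraries of 1.35 with 3L and 1.31 with 3R, and TopII RNAi replicate 2 was the lowest, at 1.04 and 0.960.

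The lowest relative contacts lay in the middle of 2L. By rank in replicate 1 of untreated cells the lowest windows were chr2L:9000001-9200000, with 0.748 to 0.825 over the 8 libraries with 3L and 0.716 to 0.845 with 3R, chr2L:9400001-9600000 with 3L (0.793 to 0.908) and chr2L:6400001-6600000 with 3R (0.797 to 0.851). None of their libraries reached 1, and their coverage was 107% to 125% of the median. By count they were not poor in pairs. The window chr2L:9000001-9200000 held 2450 pairs with 3L in replicate 1 of untreated cells against 1652 for chr2L:200001-400000. By distance, the 10 windows of 2L between 12 and 14 Mb from the centromere end had a relative contact of 0.867 to 0.907 with 3L and 0.866 to 0.910 with 3R, and the neighbouring 10 between 14 and 16 Mb had 1.03 to 1.07 with 3L.

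**Figure D5:**
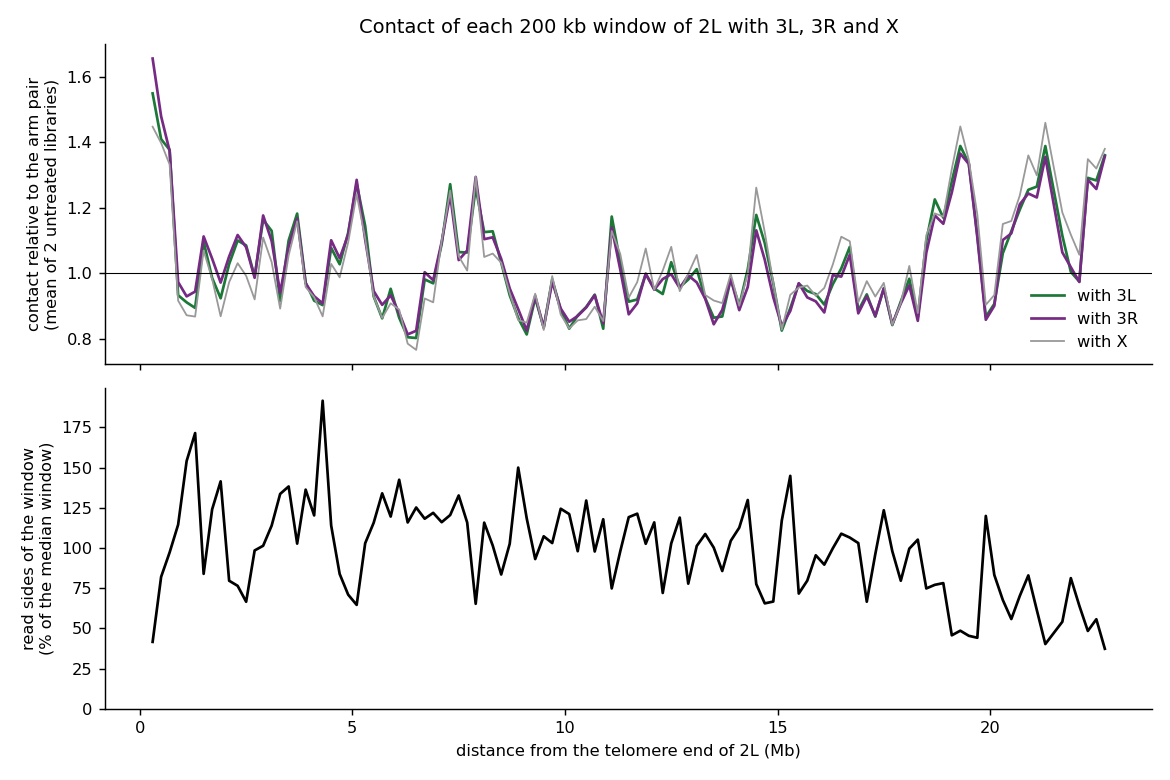
Top, contact of each 200 kb window of 2L with 3L, 3R and X relative to the arm pair, as the mean of both untreated libraries, against the distance from the telomere end; the 3 lines run together, with peaks at the telomere end (1.55 and 1.66 with 3L and 3R) and toward the centromere end. Bottom, read sides of the same windows as a percent of the median window, which dip where the contact peaks at both ends.

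On chromosome 3, too, the highest windows by contact with 2L lay toward the arm ends and the lowest in the middle. Contact fell with coverage across windows (r = −0.69 over 106 windows of 3L and −0.68 over 131 of 3R). On 3L the highest windows by contact with 2L were chr3L:400001-600000, the outermost window used toward the telomere (1.39 to 1.84 over the 8 libraries) and chr3L:21400001-21600000, the last window used toward the centromere (1.31 to 1.77, at 27.5% coverage), and the lowest were chr3L:9200001-9400000 (0.764 to 0.879) and chr3L:10200001-10400000 (0.771 to 0.864). On 3R the highest were the terminal windows chr3R:27800001-27905053 (1.37 to 2.03) and chr3R:27600001-27800000 (1.39 to 2.04), and the lowest were chr3R:12600001-12800000 (0.659 to 0.778) and chr3R:13000001-13200000 (0.749 to 0.792). The first window used toward the centromere of 3R, chr3R:1800001-2000000, had 1.2 to 1.52. The lowest windows named on 3L and 3R had 140% to 163% of the median coverage and the highest 27.5% to 78.4%. Highest and lowest windows did not overlap in any library, which their choice in replicate 1 of untreated cells fixes only for that library.

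The strongest single blocks of 200 kb on 2L by 200 kb on chromosome 3 stayed above the arm average in the libraries that did not choose them. All were lower in replicate 2 of untreated cells than in the library that chose them. They were ranked in replicate 1 of untreated cells among blocks with at least 20 expected pairs (7076 for 3L and 7579 for 3R), and read in the other 7 libraries without a test. The strongest block of 2L with 3L joined chr2L:7200001-7400000 to chr3L:400001-600000, with 69 pairs and a relative contact of 3.18 in the library that chose it. In replicate 2 of untreated cells it held 63 pairs, 2.49-fold (95% Poisson interval 1.92 to 3.19), and ranked 3 among 8092 blocks. In the RNAi libraries it had 12 to 22 pairs each and 1.42 to 3.58-fold, pooled 2.07-fold from 103 pairs. Its pairs over all libraries were spread over the homologs, with 48 maternal–maternal, 55 paternal–paternal, 62 of maternal 2L with paternal 3L and 70 of paternal 2L with maternal 3L.

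The next block joined the same window of 2L to chr3L:600001-800000 and had 2.41-fold in the choosing library, 1.62-fold (interval 1.28 to 2.02) in replicate 2 of untreated cells and 1.55-fold pooled over the RNAi libraries. The third, chr2L:3000001-3200000 with chr3L:400001-600000, had 2.38-fold, 1.81-fold (interval 1.31 to 2.44) and 1.97-fold. In replicate 2 of untreated cells these blocks ranked 128 and 57. With 3R, the strongest blocks joined chr2L:400001-600000 to chr3R:26000001-26200000 (2.40-fold, then 1.77-fold with interval 1.35 to 2.28 in replicate 2 of untreated cells) and to chr3R:26400001-26600000 (2.38-fold, then 1.86-fold with interval 1.41 to 2.41), and chr2L:3400001-3600000 to chr3R:27600001-27800000 (2.28-fold, then 1.75-fold with interval 1.27 to 2.34). All 6 blocks stayed above 1 in each of the other 7 libraries, the lowest at 1.01, and their centres lay 500 to 7300 kb from the telomere end of 2L and 205 to 1805 kb from that of 3L or 3R. The blocks with 3R ranked 51, 33 and 58 among 8821 in replicate 2, and all 6 were lower there than in the library used to choose them. Some of their windows were high with the whole partner arm in untreated cells. These were chr3L:400001-600000 (1.63 with 2L), chr3R:27600001-27800000 (1.59 with 2L) and chr2L:400001-600000 (1.48 with 3R). The block with chr3L:600001-800000 held none of them. How far a block exceeds its windows was not tested.

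No window or block of 2L contacts changed between conditions at the threshold used. Log2 contact relative to the *thet* level of each library was fitted with limma over all 4 *thet* arm pairs. For windows, 0 of 461 passed an adjusted p of 0.05 in each of the 3 comparisons, against 0% of all 906 combinations. Unadjusted p under 0.05 was found for 89 of 461 in mock RNAi against untreated. It was found for 52 in Slmb RNAi against mock RNAi and 34 in TopII RNAi against mock RNAi. The lowest adjusted p were 0.053, 0.42 and 0.28 in that order. The unadjusted counts over all 906 combinations are not given here, so these are not read as particular to 2L with chromosome 3. Medians over the windows of 2L lay within 0.028 of 0 on the log2 scale in each comparison with either arm. On the chromosome 3 side the largest was 0.043, for 3R windows with 2L in mock RNAi minus untreated. Each library was centred on its *thet* level, so medians near 0 are partly set by the fit. In simulated libraries with the means of Slmb RNAi and mock RNAi, the fit over 906 combinations recovered 100% of the changes of 1.5-fold and called 1.84% of the unchanged combinations. The spread between simulated libraries beyond counting error was small and set in advance, not taken from the replicates. The recovery therefore does not give the power of the fit on these libraries. The other comparisons were not simulated.

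Blocks of 1 Mb gave the same count, 0 of 1127 in each comparison, against 0% of all 2203 blocks for mock RNAi against untreated and for TopII RNAi against mock RNAi, and 0.0454% for Slmb RNAi against mock RNAi. Unadjusted p under 0.05 was found for 142, 94 and 67 of the 1127. The matching counts over all 2203 blocks are not given here. The calls for TopII RNAi depended on its replicates. Leaving out either replicate left a single library in that group, so the calls of those fits are not given. Without replicate 2, chr2L:22000001-22200000 with 3L was higher by 0.33 on the log2 scale. That window was named after its value was seen.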

How the data were processed

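Hi-C pairs of 8 PnM libraries were used. Per the methods and the file headers, the authors trimmed reads, aligned them with BWA 0.7.15 to a diploid genome built on dm3, kept pairs assigned to a single homolog on each side, and removed duplicates. The headers of the untreated lists alone name a selection of pair types before that step. The deposited lists give positions, strands and mapping quality scores, without normalization. The RNA-seq samples were not analysed here, and neither a dm3 annotation nor sequence was used.

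Pairs were counted in 200 kb windows. Expected pairs were the product of the read sides of both windows divided by all read sides, pairs of one homolog under 1 kb apart excluded. Windows under 25% of the median coverage of their arm were dropped. Tests were exact permutations of library signs or group labels, with Benjamini-Hochberg adjustment over 23 sign tests, and limma 3.58.1 (R 4.3.3) on log2((pairs + 0.5)/(expected + 0.5)), centred on the library's *thet* level, for blocks with a mean of at least 10 pairs. Intervals of sign tests are 95%. All 8 libraries entered each limma fit, which was tested on simulated data. SciPy 1.17.1 and NumPy 2.4.6 were used. Counting intervals are exact Poisson or from the 4 counts, and cover counting error only, since pairs carry no molecular identifiers.

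Windows were named by rank in replicate 1 of untreated cells (2 highest, 2 lowest, arm ends), blocks by rank there (3 per arm), and changed windows by adjusted p. Members, lists and tests were chosen with earlier results of these data known. Alternatives covered mapping quality, pair type, expectation, distance limits, zones, filters, pseudocount, centring, the replicate number as a block and leaving out each library. Outermost zones, the telomere axis and the comparisons with 2R were added after the data were seen. P-values measure the spread between these libraries, which may be technical.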

Additional observations from a re-analysis of the deposited data

Results flagged for a closer look

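The equal-distance score of 2L with 3L was marked because both mock RNAi libraries were above 0 and both untreated libraries below it, with a difference of 0.20 on the log2 scale (means 0.13 and −0.069). The exact permutation p was 0.33, the smallest that this test of 2 against 2 allows, and no other test of it was run. With the expectation from the margins of the map all 4 libraries were above 0 and the difference was 0.19.

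The equal-distance score of 2L with 3R minus that of 2R with 3R was marked for Slmb RNAi against mock RNAi, where the signs were opposite and the difference was −0.047 (means −0.020 and 0.026, exact permutation p = 0.33).

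The contact of the centromere end of 2L with the telomere end of 3R was marked for TopII RNAi against mock RNAi, with a log2 difference of −0.50 (means −0.16 and 0.34, exact permutation p = 0.33). TopII RNAi had relative contacts of 0.985 and 0.814 there, and mock RNAi 1.19 and 1.35.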

How the results depend on the processing

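Of 162 alternatives to the 38 results, leave-one-out fits aside, 133 kept the result, as did 229 of 240 leave-one-out fits. A result was kept if its direction and side of the threshold stayed or, for numbers of called windows and blocks, if the number stayed the same. The causes of the exceptions were not tested, except where fewer libraries define the setting. With the expectation from margins, the equal-distance score of 2L with 3L was 0.20 (0.18 without the arm ends), its difference from 2L with 3R 0.0084 (0.00049), and that of 2L with 3R from 2R −0.017. Centromere ends of 2L and 3L then had 0.16 on the log2 scale, the centromere end of 2L with the telomere end −0.40 for 3L and −0.38 for 3R (−0.34 and −0.40 over outermost windows), the telomere end of 2L with the centromere end −0.19 and −0.32, and the telomere ends of 2L less those of 2R −0.054 with 3L. At mapping quality of at least 30, mock RNAi minus untreated was 0.032 for the level with 3L, the equal-distance score of 2L with 3L −0.059, and the centromere end of 2L with the telomere end of 3R 0.69 (exact permutation p = 0.016). With pairs of linear alignments alone, the level with 3R in mock RNAi minus untreated was −0.058. In the first 3.2 Mb of 3R the same-parent log2 odds ratio was −0.034. With limits of 1 and 5 Mb the score was 0.061 with 3L (exact permutation p = 0.047) and exceeded that of 2R by 0.029 with 3R (p = 0.016), a difference of −0.060 by distance from the telomere (p = 0.0078). The strongest blocks had 2.29-fold and 2.26-fold in replicate 2 of untreated cells with 5 expected pairs and, for 3L, 2.44-fold at 400 kb, against 1.89 and 1.79. Zones of 400 kb gave no value for the telomere ends of 2L and 3L. Without the coverage minimum 1 window was called in each comparison, chr3R:1000001-1200000 with 2L (30.4 pairs per library), and without centring 1 block of 1 Mb in Slmb RNAi against mock RNAi, chr2L:22000001-23000000 with chr3R:1000001-2000000 (18.6 pairs). These features were named after their values were seen. With the replicate number as a block, 7 windows were called in mock RNAi against untreated and 0 in the other comparisons, and same-numbered deviations correlated between −0.30 and −0.050 for untreated with each RNAi group and between 0.13 and 0.22 among the RNAi groups. No source says that a number marks a shared culture or day. Within numbers 1 and 2, Slmb RNAi minus mock RNAi for the level was −0.075 and −0.088 with 3L and −0.11 and −0.11 with 3R. Leaving out 1 library, mock RNAi minus untreated for the level ran from −0.087 to 0.062 with 3L and from −0.046 to 0.10 with 3R, TopII RNAi minus mock RNAi from −0.45 to 0.13 and from −0.46 to 0.087, the odds ratio of 2L with 3R from 0.0030 to 0.012, the centromere end of 2L with the telomere end of 3R from 0.18 to 0.29, and the counts in TopII RNAi against mock RNAi from 0 to 51 windows and from 0 to 8 blocks, where a lone replicate was assumed to vary like the other groups. The effect of depth itself was not tested.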
